A study of Mus musculus with 8 samples.

Results

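The genes described here encode the nucleolar machinery that makes ribosomes. They were chosen by name: every non-control probe whose gene name in the scanner files starts with Utp, Nop, Nol, Rrp, Polr1, Gnl2, Gnl3, Imp3 or Imp4 in its numbered or lettered form, plus Nolc1, Ncl, Npm1, Npm3, Fbl, Dkc1, Bop1, Pes1, Wdr12, Wdr43, Rrs1, Nip7, Ddx21 and Mybbp1a. The rule used no measured value. It took 77 of the 39429 probes, which belong to 56 genes. Of these genes, 53 passed the filter on dim probes and were tested among 16159 genes. Nol3, Utp14b and Utp18 were not well above background on any array and were not tested.

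The cells were C10 cells, mouse pre-B cells of HAFTL origin in which C/EBPα, a transcription factor of myeloid cells, can be switched on. Of the 2 lines compared, the first carried a control shRNA and the second was labelled Tet2 knockdown. RNA of both was taken at 0 h, uninduced, and at 24 h in medium with estradiol (100 nM), IL-3 (10 ng/ml) and M-CSF (10 ng/ml), which drives the cells towards a macrophage-like state. Each of the 4 groups held 2 one-colour Agilent arrays, 8 in all. Both lines carry the C/EBPα construct and grew under puromycin, and the cytokines were given together with estradiol, so the parts of C/EBPα and of the cytokines cannot be told apart. The series calls the duplicates technical, so every p-value below rests on how far duplicate arrays differ; separate cultures were not compared.

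Ribosome synthesis starts in the nucleolus, where RNA polymerase I transcribes a long precursor of the ribosomal RNAs. Small nucleolar RNPs guide methylation and pseudouridylation of this precursor, the small subunit processome folds and cuts its first part, and a succession of assembly factors builds the large subunit. Dividing cells spend much of their energy on this pathway, and the transcription factor MYC is known to activate many of its genes, through the sequence CACGTG among others.

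The promoter windows of the members are shown because so many of the genes moved together. RefSeq windows on GRCm38.p6, 250 bases before to 50 after the start, were found for 43 of the 56 genes and gave 49 windows of 300 bases. CACGTG, which reads the same on both strands, was in 10 of the 49 windows (20.4%) and in 7.15% of all 32851 windows. CCGGAAG, a core bound by ETS factors, searched on both strands and not overlapping CACGTG, was in 13 of the 49 (26.5%, 12 genes) and in 8.86% of all windows. Member windows were also richer in G and C, with a median of 57.7% against 52.7% for all. The set of all windows covers 27025 genes, many of them not tested here, and no share among tested genes alone is given. The stretches below lie upstream of the start and have the matches in capitals. They are from chr6:125131793-125131858 (plus strand) for Nop2, chr11:107189389-107189454 (minus) for Nol11, chr1:34439678-34439743 (plus) for Imp4, chr15:83122974-83123039 (minus) for Rrp7a and chr19:46075803-46075846 (plus) for Nolc1.
Nop2: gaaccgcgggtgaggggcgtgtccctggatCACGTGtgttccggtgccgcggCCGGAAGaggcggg
Nol11: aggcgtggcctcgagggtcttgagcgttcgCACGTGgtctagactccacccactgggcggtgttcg
Imp4: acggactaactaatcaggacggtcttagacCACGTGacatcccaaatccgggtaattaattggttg
Rrp7a: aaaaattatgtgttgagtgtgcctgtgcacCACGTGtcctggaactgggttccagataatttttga
Nolc1: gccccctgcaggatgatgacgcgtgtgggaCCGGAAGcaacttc

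Counted from the start site, the CACGTG of Nop2 begins at position -60 and its CCGGAAG at -38. The matches of Nol11, Imp4 and Rrp7a begin at -43, -121 and -208, and that of Nolc1 at -14. The changes are given by motif as a description. The 8 tested genes with CACGTG in the window had a median log2 change of -0.93 in the control induction, from -1.38 to 0.15, and the 33 without it had -1.07, from -2.01 to 0.03. The 11 tested genes with CCGGAAG had a median of -0.78 and the 30 without it -1.13. In the line labelled knockdown the 4 medians were -1.42, -1.26, -0.88 and -1.52, in the same order.

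Facts on the arrays come first. Between 47.4% and 55.6% of spots cleared the scanner's background limit on each array, no spot was saturated, and duplicates correlated across genes with r from 0.992 to 0.994. Tet2 RNA did not pass the test as lower in the line labelled knockdown, at 92.8% of control at 0 h (log2 -0.11 ± 0.10, adjusted p = 0.53) and 100% at 24 h (0.01 ± 0.10, adjusted p = 0.98), so the lines are named by their labels throughout. Of the pre-B cell markers, all 12 were above background on every array, and their summed level (linear, relative to the array's 75th percentile) went from 556-598 to 291-317 in the control line and from 527-602 to 402-421 in the other. The sum over 11 macrophage and monocyte markers went from 17.0-17.4 to 1040-1110 and from 15.1-15.6 to 1020-1110, although Adgre1 among them was above background on at most 3 arrays. The sum over 12 proliferation markers, of which Aurkb was never above background, went from 249-253 to 16.9-17.2 and from 299-300 to 14.1-14.4. All 11 tested proliferation markers fell at least 2-fold in both inductions, with medians of -4.45 and -4.86, beside every fall reported below; their part in these falls was not tested. Of T cell, erythroid and stromal markers Cd3g, Cd8a, Alas2, Col1a1, Col3a1, Dcn and Lum were above background on no array.

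Levels are given as log2 of the signal over the array's 75th percentile, so a level of 0 is the 75th percentile and 1 unit is 2-fold. Changes are log2 differences of group means from 1 limma fit, ± its standard error, with n = 2 arrays per group. Genes named as called had a change of at least 2-fold and an adjusted p (Benjamini-Hochberg, all genes) under 0.05. In these bulk samples, fewer cells that express a gene and less RNA per cell cannot be told apart.

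The first question was how the nucleolar genes changed when pre-B cells were induced. In the control line 27 of the 53 tested members were called lower and 0 higher, while 13.1% of all genes were called lower and 14.1% higher. At an adjusted p under 0.05 without a fold limit, 44 members fell (31.1% of all genes) and 0 rose (30.7% of all genes). At an unadjusted p under 0.05 the counts were also 44 and 0, and no share of all genes is given at that limit. The median member change was -1.03, against 0.00 over all genes. The fall was seen array by array: in 46 of the 53 both arrays at 24 h lay below both at 0 h (86.8%, against 39.6% of all genes). In 2 both lay above (3.77%, against 39% of all genes), and in 5 the groups overlapped. The median member level was 2.61 and 2.53 on the arrays at 0 h and 1.81 and 1.90 at 24 h, while the median of all genes stayed between 0.05 and 0.08.

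In the line labelled knockdown 32 members were called lower and 1, Nol4, higher, against 15.4% and 16.7% of all genes. Without the fold limit 45 fell (32% of all genes) and 1 rose (36.2%). The median was -1.25 while that of all genes was 0.14. Scaling the arrays to their median instead moved the all-gene median to -0.11 and the share of lower genes among all called from 48.0% to 60.9%, and 41 members were then called lower. Both arrays at 24 h lay below both at 0 h in 49 members (92.5%, against 38.3% of all genes). Npm3 is among the 49, although it passed the filter only through this line at 0 h. Member medians were 2.85 and 2.77 at 0 h and 1.80 and 1.77 at 24 h. Of the members, 25 were called lower in both inductions, 2 (Nol7 and Utp14a) in the control line alone and 7 (Nip7, Nop16, Nop2, Gnl2, Gnl3l, Nol6 and Ddx21) in the other line alone. These 9 lie on both sides of the 2-fold limit without a tested difference in all cases but Nop2, Nol6 and Ddx21, described further on. The changes of the members in the 2 inductions, which share no array, correlated with r = 0.921 over the 53 genes, and r was 0.919 over all genes.

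**Figure D1:**
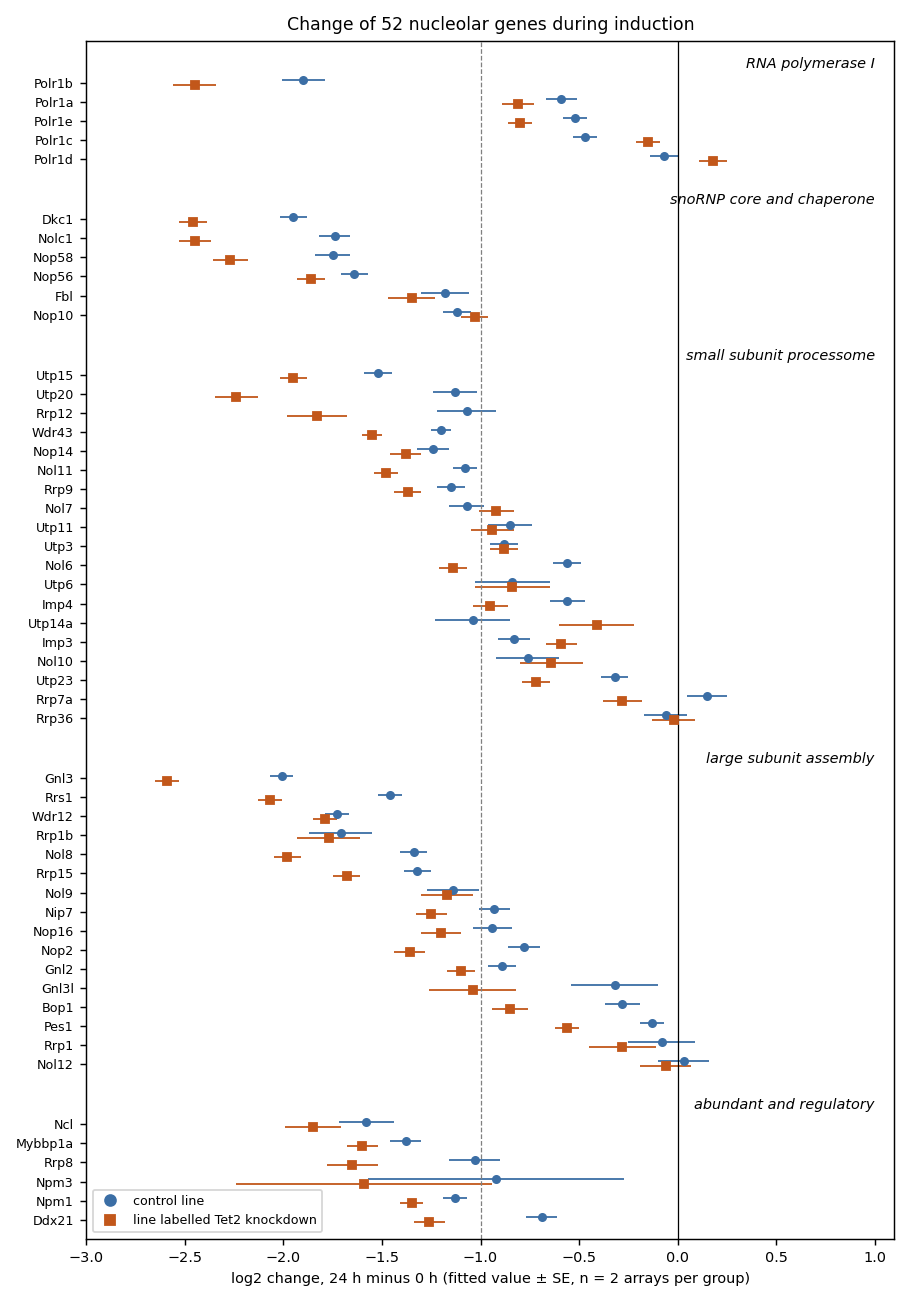
Log2 change from 0 h to 24 h of the 52 tested members with a known nucleolar role, by role, in the control line (circles) and the line labelled Tet2 knockdown (squares); bars are standard errors, n = 2 arrays per group, and the dashed line marks a 2-fold fall. All 6 snoRNP genes lie left of the dashed line in both lines, while Polr1d, Rrp36 and Nol12 lie near 0.

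RNA polymerase I was split by subunit: 1 of 5 tested subunits, Polr1b, was called lower in each induction. Polr1b, which with Polr1a forms the catalytic centre, has its probe at chr2:128951870-128951929 (mm9, as are all probe positions here). Its level was 1.23 and 0.99 in control cells at 0 h and -0.74 and -0.84 at 24 h. The line labelled knockdown had 1.40 and 1.38, then -0.96 and -1.16. The groups at 0 h and 24 h lay far apart in both lines, and Polr1b dropped to 26.8% of its starting level in control cells (-1.90 ± 0.11, adjusted p = 4.2e-05) and to 18.3% in the other line (-2.45 ± 0.11, adjusted p = 1.4e-05).

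Polr1a, the largest subunit (chr6:71929251-71929310), read 2.74 and 2.59 before and 2.07 on both arrays after induction in control cells, and 2.85 and 2.73 before and 1.96 and 2.00 after in the other line. It fell in both without overlap, but by less than 2-fold (-0.59 ± 0.08, adjusted p = 0.0011, and -0.81 ± 0.08, adjusted p = 0.00025). Polr1e, a subunit found in polymerase I and not in polymerases II and III, fell by 0.52 and 0.80 on the log2 scale (adjusted p = 0.00056 and 8.5e-05). Polr1c and Polr1d are shared with RNA polymerase III. Polr1c fell by 0.47 in control cells (adjusted p = 0.0012) and changed by -0.15 ± 0.06 in the other line (adjusted p = 0.074, and 0.025 with the slide as a block). Polr1d read 3.84 and 3.78 against 3.69 and 3.79 in control cells, which overlap, and 3.73 and 3.71 against 3.85 and 3.95 in the other line, where both arrays at 24 h were higher. Neither change passed the test (-0.07 ± 0.07, adjusted p = 0.40, and 0.18 ± 0.07, adjusted p = 0.055; with the slide as a block the second had adjusted p = 0.047). A second Polr1d probe gave -0.53 and -0.60, so the direction of Polr1d depends on the probe, and the mean of both probes gave -0.21 in the line labelled knockdown.

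The snoRNP genes fell as a whole: all 6 were called lower in both inductions, with medians of -1.69 and -2.07. Among the box H/ACA proteins, Dkc1, the pseudouridine synthase, was 1.02 and 1.08 before and -0.92 and -0.87 after induction in control cells. In the other line it was 1.32 and 1.45, then -1.10 and -1.06. Both arrays at 24 h lay far below both at 0 h in each line, and the fitted changes were -1.95 ± 0.07 (adjusted p = 7e-06) and -2.46 ± 0.07 (adjusted p = 3e-06). Nop10, the small H/ACA core protein, read 4.35 and 4.23, then 3.19 and 3.15 in control cells, and 4.31 and 4.26, then 3.22 and 3.29 in the other line. Its fall was the smallest of the group in both lines (-1.12 ± 0.07 and -1.03 ± 0.07, adjusted p = 4.4e-05 and 5.1e-05).

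Of the box C/D proteins, Fbl (fibrillarin, the methyltransferase; chr7:28964229-28964288) read 2.96 and 2.94, then 1.65 and 1.90 in control cells. The other line read 3.11 and 2.93, then 1.58 and 1.78. The times did not overlap in either line, and Fbl fell to 44.3% and 39.3% of the starting level (-1.18 ± 0.12, adjusted p = 0.00041, and -1.35 ± 0.12, adjusted p = 0.0002). Its partners fell further, Nop56 by 1.64 and 1.86 and Nop58 by 1.75 and 2.27 on the log2 scale. Nolc1, the chaperone that binds both classes of snoRNP (chr19:46158875-46158934), was 4.42 and 4.40 before and 2.71 and 2.64 after induction in control cells. In the other line it started higher, at 4.83 and 4.67, and ended lower, at 2.35 and 2.25. It dropped to 30% in control cells (-1.74 ± 0.08, adjusted p = 1.6e-05) and 18.3% in the other line (-2.45 ± 0.08, adjusted p = 4.5e-06).

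**Figure D2:**
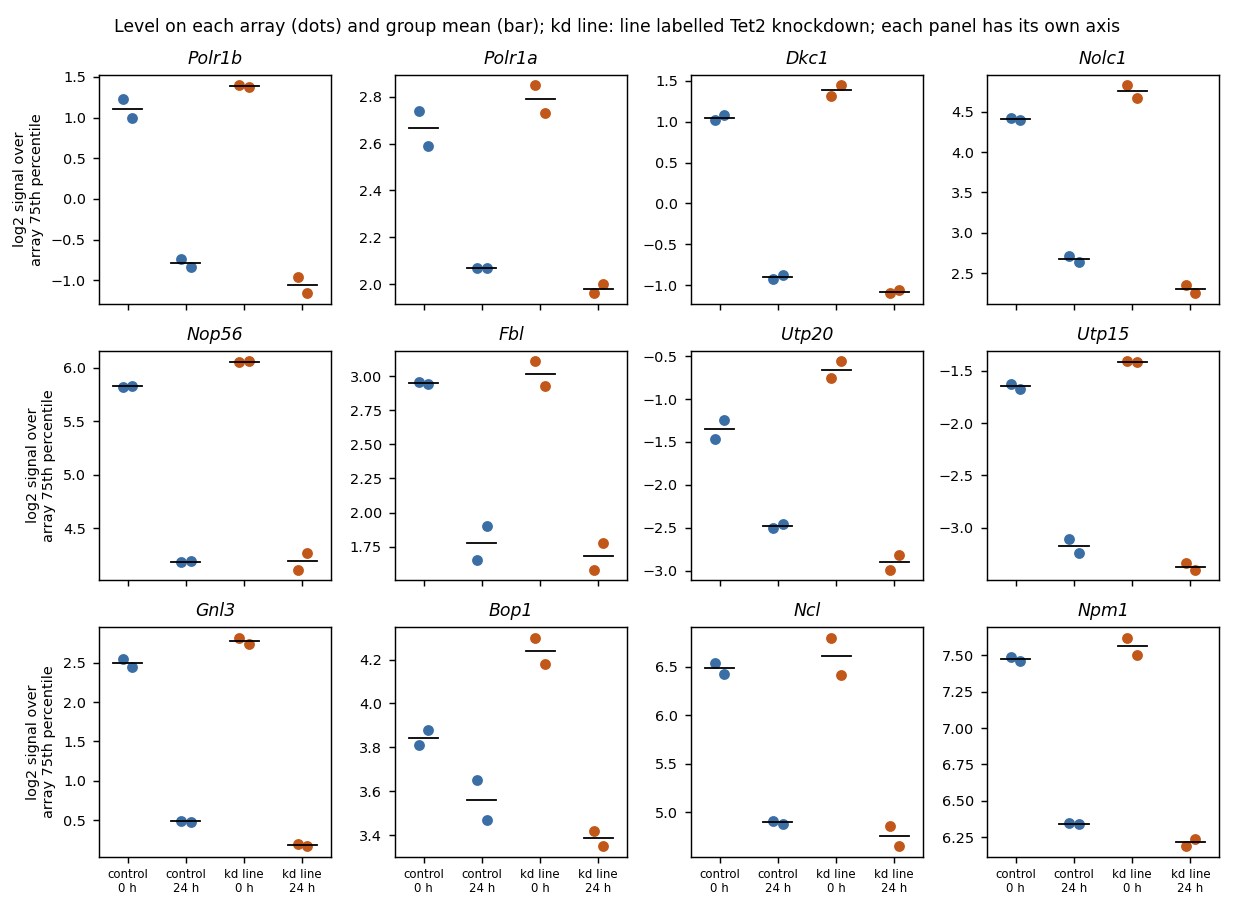
Level of 12 members on each of the 8 arrays (dots, log2 signal over the array's 75th percentile) with the group mean (bar), by line and time; axes differ between panels. In all 12 panels both arrays at 24 h lie below both at 0 h in each line. The dots of the line labelled knockdown lie above the control dots at 0 h and below them at 24 h for some genes. These are Polr1b, Dkc1, Nolc1, Utp20, Utp15, Gnl3, Bop1 and Npm1.

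The small subunit processome fell less evenly. Of its 19 tested genes 9 were called lower in the control line and 8 in the other, 17 fell in each without the fold limit, and 0 rose; the medians were -0.88 and -0.94. Utp15, of the subcomplex that binds the nascent precursor first, went from -1.63 and -1.67 to -3.11 and -3.24 in control cells. The other line went from -1.41 and -1.42 to -3.34 and -3.40. The duplicates lay close together at each time, and Utp15 had the largest mean fall of the group (-1.52 ± 0.07, adjusted p = 1.4e-05, and -1.95 ± 0.07, adjusted p = 5.2e-06).

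Nol11 and Wdr43 belong to the same early subcomplex. Nol11 read 2.24 and 2.22, then 1.18 and 1.13 in control cells, and 2.48 and 2.43, then 1.03 and 0.92 in the other line, without overlap (-1.08 ± 0.06 and -1.48 ± 0.06, adjusted p = 4.1e-05 and 1.1e-05). Wdr43 read 3.39 and 3.35, then 2.19 and 2.16, and in the other line 3.58 and 3.62, then 2.05 and 2.06 (-1.20 ± 0.05 and -1.55 ± 0.05, adjusted p = 1.5e-05 and 5.5e-06). Both thus repeated the fall of Utp15 with similar tightness of the duplicates. Utp20, a large scaffold protein of the processome, read -1.46 and -1.24, then -2.50 and -2.46 in control cells. The line labelled knockdown read -0.76 and -0.56, then -2.99 and -2.82, higher than control at 0 h and lower at 24 h on every array. Its fall was -1.13 ± 0.11 in one line and -2.24 ± 0.11 in the other (adjusted p = 0.00039 and 2.2e-05).

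Nol6, the mammalian Utp22, read 1.37 and 1.29, then 0.83 and 0.71, and in the other line 1.75 on both arrays, then 0.60 and 0.62. It fell by 0.56 and 1.14 on the log2 scale (adjusted p = 0.0007 and 3.3e-05). Utp23, needed for an early cleavage of the precursor, read 0.14 and 0.06, then -0.19 and -0.24, and in the other line 0.22 and 0.23, then -0.43 and -0.57, and fell by 0.32 and 0.72 (adjusted p = 0.0099 and 0.00028). These 2 genes fell without overlap of the times, by less than the early subcomplex. The U3 snoRNP proteins Rrp9, Imp3 and Imp4 fell by 1.15, 0.83 and 0.56 in control cells and by 1.37, 0.59 and 0.95 in the other line.

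At the other end was Rrp36, which read 1.86 and 1.76, then 1.81 and 1.69 in control cells, and 1.95 and 1.72, then 1.90 and 1.72 in the other line. The times overlapped in both, and the changes were -0.06 ± 0.11 (95% interval -0.34 to 0.22) and -0.02 ± 0.11 (adjusted p = 0.67 and 0.86). Rrp7a was the only member whose arrays moved in opposite directions, by 0.15 ± 0.10 in control cells (adjusted p = 0.25) and -0.28 ± 0.10 in the other line (adjusted p = 0.048), and its other probes gave 0.76 and 0.03 in control cells and 0.03 and -0.30 in the other line.

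Among 16 tested genes of large subunit assembly 7 were called lower in control cells and 12 in the other line, with medians of -0.94 and -1.22, and 0 rose. Gnl3 (nucleostemin, a nucleolar GTPase of proliferating cells; chr14:31826877-31826936) had the largest mean fall of all members. Control cells read 2.55 and 2.45 before and 0.49 and 0.48 after induction. The line labelled knockdown read 2.82 and 2.74, then 0.20 and 0.17. The level fell to 24.8% and 16.6% (-2.01 ± 0.06, adjusted p = 5.3e-06, and -2.59 ± 0.06, adjusted p = 2.1e-06).

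Rrs1, which helps to bring the 5S RNP into the large subunit, read 2.44 and 2.53, then 1.01 and 1.04 in control cells, and 2.76 and 2.77, then 0.68 and 0.71 in the other line. It fell to 36.3% and 23.8% (adjusted p = 1e-05 and 2.9e-06). Nol8, a binding partner of Rrag GTPases found in the nucleolus, read -0.75 and -0.83, then -2.16 and -2.10, and in the other line -0.27 and -0.38, then -2.28 and -2.33 (-1.34 ± 0.07 and -1.98 ± 0.07, adjusted p = 2.5e-05 and 5.6e-06). Nop2, which methylates a cytosine of the large ribosomal RNA, read 4.97 and 4.82, then 4.14 and 4.09, and in the other line 5.27 and 5.23, then 3.97 and 3.83 (-0.78 ± 0.08 and -1.36 ± 0.08, adjusted p = 0.00042 and 3.9e-05). In these 3 genes each array of the line labelled knockdown lay above both control arrays at 0 h and below both at 24 h.

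Bop1, Pes1 and Wdr12 form 1 complex, PeBoW, yet their transcripts fell unequally. Wdr12 fell by 1.73 and 1.79 on the log2 scale (adjusted p = 5.1e-06 and 3.9e-06). Bop1 (chr15:76283572-76283631) read 3.81 and 3.88, then 3.65 and 3.47 in control cells, and 4.30 and 4.18, then 3.42 and 3.35 in the other line. The times did not overlap, with changes of -0.28 ± 0.09 (adjusted p = 0.033) and -0.85 ± 0.09 (adjusted p = 0.00035). Pes1 read 2.19 and 2.14, then 2.02 and 2.04 in control cells, and 2.49 and 2.59, then 1.95 and 2.00 in the other line, with changes of -0.13 ± 0.06 (adjusted p = 0.13) and -0.56 ± 0.06 (adjusted p = 0.00051). The other Pes1 probe gave -0.76 and -0.52, so the size of its fall in control cells depends on the probe, while the second Wdr12 probe gave -1.37 and -1.79. Nol12, an RNA-binding nucleolar protein, had the smallest mean change of the group: 4.26 and 4.08, then 4.37 and 4.03 in control cells, and 4.30 and 4.23, then 4.2 and 4.22 in the other line, neither past the test (0.03 ± 0.13 and -0.06 ± 0.13, adjusted p = 0.86 and 0.72).

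The abundant nucleolar proteins fell as well, 4 of 6 being called in control cells and 5 in the other line. Ncl (nucleolin; chr1:88247953-88248012) read 6.54 and 6.43 before and 4.91 and 4.88 after induction in control cells. In the other line it read 6.80 and 6.42, then 4.86 and 4.65. It fell to 33.3% and 27.7% (-1.58 ± 0.14 and -1.85 ± 0.14, adjusted p = 0.00024 and 0.00011), and a second probe gave -0.78 and -1.42. Npm1 (nucleophosmin; chr11:33052565-33052624) read 7.49 and 7.46, then 6.35 and 6.34 in control cells, and 7.62 and 7.50, then 6.19 and 6.24 in the other line. It fell to 45.6% and 39.3% (-1.13 ± 0.06 and -1.35 ± 0.06, adjusted p = 3.7e-05 and 1.7e-05), and its 3 other probes gave -1 to -1.29 and -1.08 to -1.38.

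Ddx21, an RNA helicase of the nucleolus, read 2.61 and 2.77, then 1.95 and 2.06 in control cells, and 3.05 on both arrays, then 1.80 and 1.77 in the other line. It fell by 0.69 and 1.26 on the log2 scale (adjusted p = 0.00053 and 3.9e-05), and a second probe gave -1.20 and -1.70. Npm3, a relative of nucleophosmin, was dim: it was above background on 3 of the 8 arrays and on none at 24 h. In the line labelled knockdown it read -3.80 and -3.50 at 0 h and -6.01 and -4.48 at 24 h, with a bound of 2.59-fold. In control cells it read -5.02 and -3.66, then -5.58 and -4.95, which overlap. There 1 of 2 arrays measured it at 0 h, so the 1.26-fold of the same calculation is no lower bound. Neither change passed the test (adjusted p = 0.076 in the line labelled knockdown and 0.28 in control cells). With the slide as a block the first had adjusted p = 0.011. The filter kept Npm3 only because both arrays of the line labelled knockdown at 0 h were above background. That favours a fall from this group, so the bound and the p-values of this line are no support for one. The bound sets the mean of both arrays of the brighter group against a value from each dim array. That value is the larger of the probe's own signal and the lowest signal well above background.

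Nol4 shares only its name with this machinery and is not known as an assembly factor. It read -5.29 and -2.58, then -2.20 and -2.32 in control cells, and -5.21 and -5.05, then -1.98 and -2.20 in the other line. The control duplicates at 0 h lay far apart, and the change in control cells had a large error (1.68 ± 0.82, adjusted p = 0.13), and the rise in the other line was 3.05 ± 0.82 (adjusted p = 0.019). Its other 2 probes were above background on no array. Without Nol4 the 52 remaining tested members had 27 and 32 called lower, 0 and 0 called higher and the same medians.

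**Figure D3:**
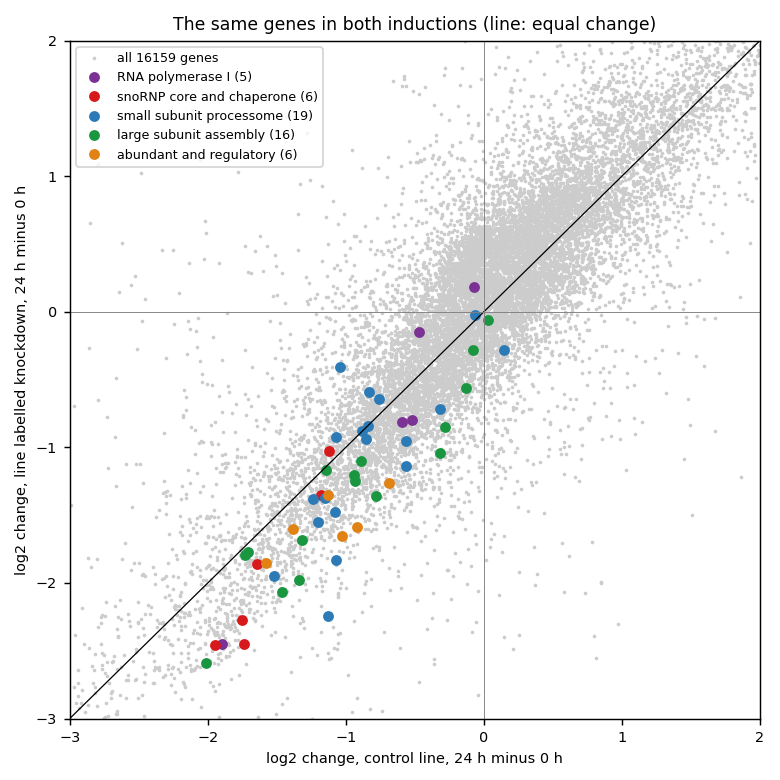
Log2 change in the line labelled Tet2 knockdown against the change in the control line for 52 tested members (coloured by role) and all 16159 genes (grey; genes outside the axes are not drawn); the diagonal marks equal change. Most members lie in the lower left and below the diagonal, with Gnl3 lowest at -2.01 and -2.59.

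Genes of the same pathway outside the name rule were taken from lists of known factors. Of 114 tested other biogenesis genes 42 were called lower and 2 higher in the control line, with a median of -0.77, and 64 lower and 2 higher in the other line, with a median of -1.07. In the snoRNP list 7 and 9 of 12 were called lower, in the large subunit list 18 and 26 of 42, in the small subunit list 10 and 21 of 35, in the exosome and processing list 5 and 6 of 15, and among other polymerase I factors 2 and 2 of 10. Of all genes 13.1% and 15.4% were called lower and 14.1% and 16.7% higher. The called polymerase I factors lie near these shares, though without the fold limit 8 and 7 of the 10 fell. The 2 called higher in each line were 1 polymerase I factor and 1 small subunit gene. Without the fold limit 93 and 95 of the 114 fell, against 31.1% and 32% of all genes. By that measure 3 and 4 rose, against 30.7% and 36.2% of all genes.

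Ubtf, which binds the ribosomal DNA promoter, went the other way: it read 5.86 and 5.84, then 6.99 and 7.05 in control cells and 5.75 and 5.83, then 7.02 and 7 in the other line. It rose by 1.17 ± 0.06 and 1.22 ± 0.06 (adjusted p = 2.3e-05 and 1.7e-05). Rrn3, which links polymerase I to its promoter, fell by 0.34 and 0.70 on the log2 scale (adjusted p = 0.0072 and 0.0003). Taf1a, of the selectivity factor at that promoter, fell by 0.76 and 1.73 and was above background on 6 of 8 arrays. Heatr1, a processome scaffold, rose by 1.68 ± 0.07 and 1.1 ± 0.07, against the fall of the list it belongs to. Tsr2 had the largest mean fall in that list (-1.82 and -1.70), Naf1, an H/ACA assembly factor, in the snoRNP list (-1.73 and -1.86) and Pa2g4 in the large subunit list (-1.45 and -1.84). At the upper end of those lists Nufip1 (0.05 and 0.39) and Nsa2 (-0.24 and 0.42) did not pass the test in control cells (adjusted p = 0.80 and 0.10), and Nsa2 rose in the other line (adjusted p = 0.015). In the exosome list Exosc6 had the largest mean fall (-2.46 ± 0.09 and -2.98 ± 0.09), and Exosc2 was highest (-0.03 and 0.42, neither past the test). Myc itself read 3.32 and 3.24, then 1.88 and 1.83 in control cells and 3.16 and 3.17, then 1.77 and 1.75 in the other line, a fall of 1.42 and 1.40 (adjusted p = 1.1e-05 and 1e-05).

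The genes of cytosolic ribosomal proteins did not share the fall, and those of mitochondrial ribosomal proteins fell by less than the members. Of 90 tested cytosolic ribosomal protein genes 0 were called lower and 0 higher in either induction; without the fold limit 7 fell and 0 rose in control cells, and 3 fell and 60 rose in the other line. The name rule had also taken S6 kinases and Rps19bp1, which were left out here, and with them the called counts were 0 lower and 2 higher. The medians were -0.05 and 0.46, but the second was 0.06 after quantile normalization and 0.02 in the authors' deposited table, so the rise depends on the scaling of these bright probes, whose median level was 7.96. Of 75 mitochondrial ribosomal protein genes 9 and 14 were called lower and 1 and 1 higher, with medians of -0.41 and -0.52. These counts of lower genes lie near the shares of all genes, 13.1% and 15.4%. Without the fold limit 51 fell and 3 rose in each induction, where 31.1% and 32% of all genes fell and 30.7% and 36.2% rose.

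**Figure D4:**
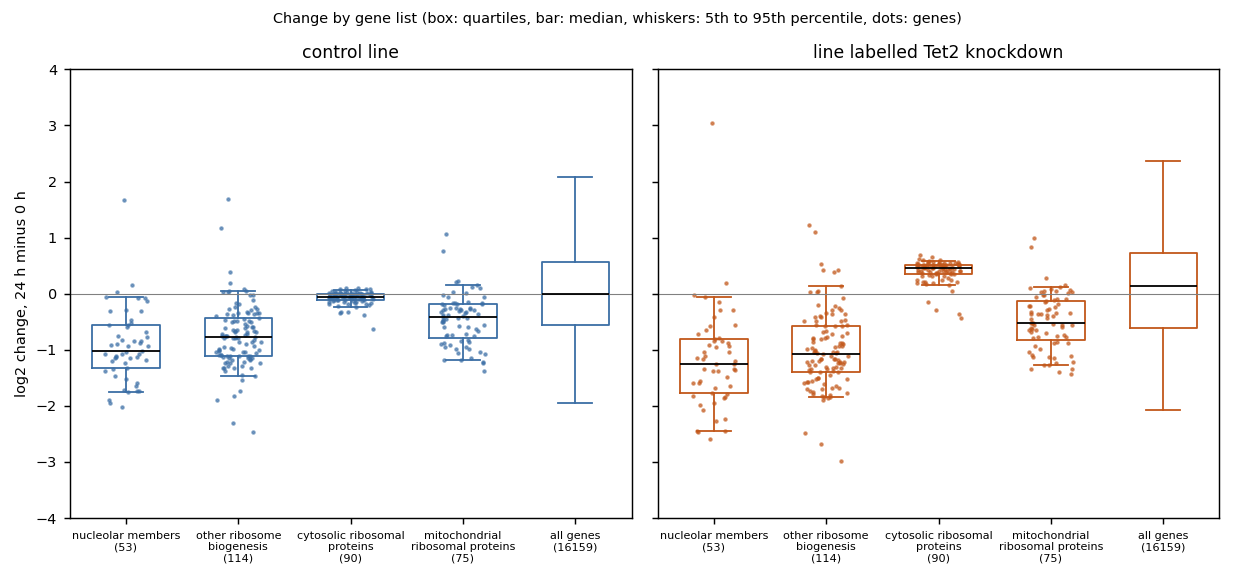
Log2 change from 0 h to 24 h in the control line (left) and the line labelled Tet2 knockdown (right) for 5 gene lists, with the number of tested genes under each name; boxes are quartiles, bars medians, whiskers the 5th and 95th percentile, dots single genes. The nucleolar members have medians of -1.03 and -1.25 and the other biogenesis genes -0.77 and -1.07, while cytosolic ribosomal proteins lie at -0.05 and 0.46.

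The lines were then compared at each time. At 0 h no member was called by limma in either direction (1.4% of all genes lower, 0.334% higher). At an unadjusted p under 0.05, 22 members were higher in the line labelled knockdown and 1 lower, and no share of all genes is given at that limit. At an adjusted p under 0.05 alone 14 members were higher and 0 lower, where 5.92% of all genes were higher and 7.57% lower. The largest of the 14 was Utp20, at 161% of control (0.69 ± 0.11, adjusted p = 0.02), followed by Nol8 (0.46 ± 0.07, adjusted p = 0.014), Nol6 (0.42 ± 0.07, adjusted p = 0.016) and Bop1 (0.39 ± 0.09, adjusted p = 0.042). The median member difference was 0.16 against 0.00 for all genes. In 32 members both arrays of the line labelled knockdown lay above both control arrays (60.4%, against 29.6% of all genes). In 4 both lay below (7.55%, against 27.5% of all genes). With the slide as a block Polr1b (0.28, adjusted p = 0.049), Utp15 (0.24, adjusted p = 0.035), Nol11 (0.22, adjusted p = 0.034), Rrp15 (0.26, adjusted p = 0.038), Nop16 (0.25, adjusted p = 0.047) and Imp4 (0.27, adjusted p = 0.023) also passed as higher. Polr1c then passed as lower (-0.26, adjusted p = 0.021, and 0.054 without the block). The shares of all genes above come from the fit without the block, and none is given with it. The count of 14 was 0 after median scaling or without the filter and 3 after the normexp background correction. Leaving out 1 array at a time gave 0 to 4, and each of the 8 arrays lowered it.

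At 24 h again no member was called (0.996% of all genes lower, 1.05% higher), and at an adjusted p under 0.05 alone 3 members were lower, Gnl3 (81.3% of control, adjusted p = 0.039), Rrs1 (79.3%, adjusted p = 0.022) and Nolc1 (76.9%, adjusted p = 0.035), and 0 higher, where 6.44% of all genes were lower and 7.4% higher. At an unadjusted p under 0.05 the counts were 15 and 1, and no share of all genes is given at that limit. With the slide as a block 10 members were lower, these 3 and Utp15 (-0.20, adjusted p = 0.048), Nop2 (-0.22, adjusted p = 0.043), Utp20 (-0.42, adjusted p = 0.017), Nol11 (-0.18, adjusted p = 0.048), Utp23 (-0.28, adjusted p = 0.027), Nip7 (-0.23, adjusted p = 0.041) and Rrp12 (-0.45, adjusted p = 0.041). The shares of all genes above come from the fit without the block, so the 10 have no share beside them. The median difference was -0.10, and that of all genes 0.04. The 3 were 0 after median scaling, without the filter, and without any 1 of the 4 arrays at 24 h, and 1 without either control array at 0 h.

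Last, the inductions themselves were compared, as the change in the line labelled knockdown minus the change in control cells. 1 member, Utp20, was called, with a fall larger by 1.11 ± 0.16 on the log2 scale (95% interval -1.52 to -0.70, adjusted p = 0.015), where 1.46% of all genes were called lower and 2.36% higher. At an unadjusted p under 0.05, 24 members lay lower and 2 higher, and no share of all genes is given at that limit. At an adjusted p under 0.05 alone 15 members fell further in the line labelled knockdown and 0 fell less, where 7.05% of all genes were lower and 9.2% higher. By role they were 6 of 16 large subunit genes (Gnl3 -0.58, Rrs1 -0.61, Nol8 -0.64, Nop2 -0.57, Bop1 -0.57 and Pes1 -0.43), 6 of 19 processome genes (Utp20, Nol6 -0.58, Utp15 -0.43, Utp23 -0.41, Nol11 -0.41 and Wdr43 -0.35), 2 of 6 snoRNP genes (Nolc1 -0.71 and Dkc1 -0.51) and 1 of 6 abundant proteins (Ddx21 -0.57). Of the 5 polymerase I subunits none passed; Polr1b had -0.55 ± 0.16 (adjusted p = 0.07, and 0.021 with the slide as a block) and Polr1e -0.28 (adjusted p = 0.078, and 0.040 with the block). For Polr1c the difference was 0.32 ± 0.09, a smaller fall than in control cells (adjusted p = 0.067, and 0.024 with the block). The block also brought Nop58 (-0.51, adjusted p = 0.017), Rrp12 (-0.76, adjusted p = 0.026), Imp4 (-0.39, adjusted p = 0.018), Rrp15 (-0.36, adjusted p = 0.035) and Nip7 (-0.31, adjusted p = 0.042) past the test. The shares of all genes above come from the fit without the block, and none is given with it.

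The difference for Pes1 depends on the probe: its second probe gave 0.23 ± 0.18 (adjusted p = 0.43), in the opposite direction, and the mean of both gave -0.10. Utp15, read by 1 probe, gave -0.14 after the normexp background correction. Second probes of Nolc1 (-0.41, adjusted p = 0.12), Ddx21 (-0.50, adjusted p = 0.03) and Wdr43 (-0.43, adjusted p = 0.034) had the direction of the first.

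The median difference of the inductions was -0.27 over the 53 members and 0.05 over all genes, and 44 members lay below 0 (83%, against 45.2% of all genes). Within slide 1 alone the member median was -0.31, with 45 of 53 below 0, and within slide 2 alone -0.22, with 41 below 0. The other biogenesis genes had a median of -0.22, with 24 of 114 falling further at an adjusted p under 0.05 and 3 less. The 15 were 0 after median scaling and without the filter on dim probes, and 7 after the normexp background correction. Each of the 8 arrays, when left out, lowered the count, to between 0 (without control replicate 1 at 24 h) and 7 (without replicate 2 of the line labelled knockdown at 0 h). Median scaling also moved the share of lower genes among all called in this contrast from 38.2% to 51.6%, and normexp to 25.8%; at 0 h normexp moved it from 80.8% to 94.0%.

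**Figure D5:**
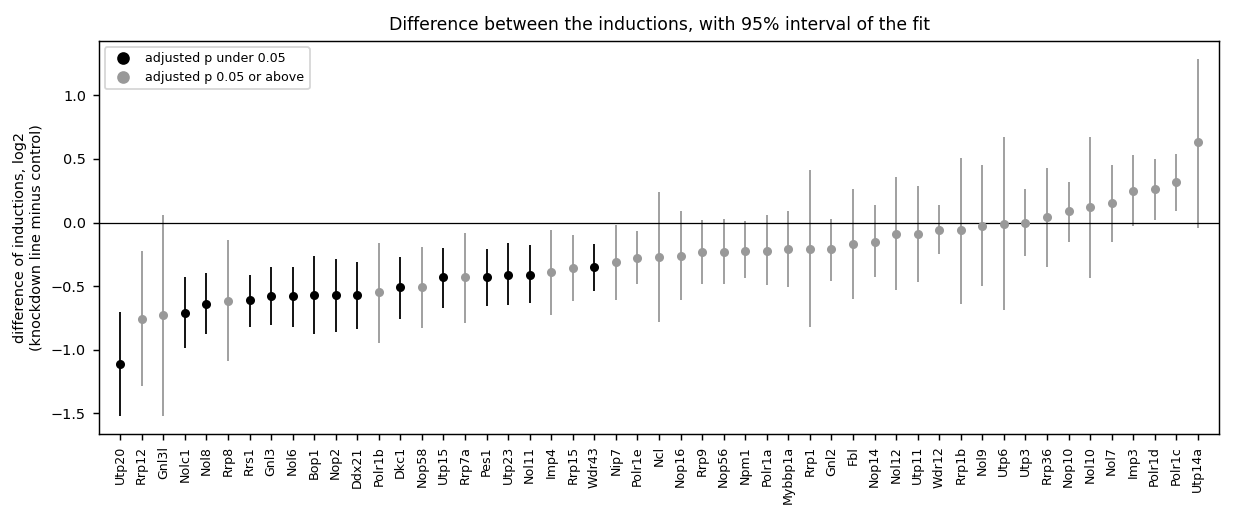
Difference between the inductions (log2 change of the line labelled Tet2 knockdown minus that of control cells) for 51 tested members, without Npm3 and Nol4, sorted; bars are 95% intervals of the fit and black points have an adjusted p under 0.05. The 15 black points all lie below 0, from -1.11 (Utp20) to -0.35 (Wdr43).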

How the data were processed

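Members and gene lists were chosen with earlier results of these data known. The authors deposited scanner files, whose processed signal is a background-subtracted and detrended intensity per the file headers (Feature Extraction 10.7.3.1, mm9), and a table of log2 values; the submitters' processing notes name limma, and background correction and normalization are not given in the sources used here. Here log2 processed signal minus the array's log2 75th percentile was used, without outlier spots and with replicate spots averaged. Probes were kept where both arrays of any group flagged them as well above background, and each gene was read from its passing probe of highest mean. Names came from RefSeq by accession (11555 genes), symbol (644) or synonym (94), and 3866 kept the file's name; related genes may share probes. limma 3.58.1 (R 4.3.3, with version 1.17.8 of data.table) fitted 4 group means to 8 arrays (residual df 4, prior df 1.51, median SE 0.10; 0.14 for the difference of inductions), tested on simulated data, 2-sided. The replicate number is the slide, which held all 4 groups; deviations of same-numbered arrays correlated 0.30 to 0.41 in all pairs, so it was used as a block in an alternative. The number of arrays limits the precision.

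Members given on every array were Ncl, Npm1, Fbl, Polr1a, Polr1b, Gnl3, Nolc1 and Bop1, the largest and smallest mean change per role, any member called higher, and any whose inductions differed; of other biogenesis genes Myc, Ubtf, Rrn3 and the extremes of each list were named, and further members by their changes only. Alternatives covered scaling, background correction (normexp, offset of 50), filter, probe choice, outlier spots, moderation, block, single slides and single arrays.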

Additional observations from a re-analysis of the deposited data

Results flagged for a closer look

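The change on induction differed between the lines, by the test of the difference itself, in 15 members, each with the larger fall in the line labelled knockdown by the probe that stood for the gene. On the log2 scale the differences were Utp20 -1.11, Nolc1 -0.71, Nol8 -0.64, Rrs1 -0.61, Gnl3 -0.58, Nol6 -0.58, Nop2 -0.57, Bop1 -0.57, Ddx21 -0.57, Dkc1 -0.51, Utp15 -0.43, Pes1 -0.43, Nol11 -0.41, Utp23 -0.41 and Wdr43 -0.35. None of them kept an adjusted p under 0.05 after median scaling or without the filter on dim probes. The sizes also moved: Utp15 was -0.14 with normexp, and Pes1 was -0.10 with the mean of its probes. The second Pes1 probe alone gave 0.23 ± 0.18 (adjusted p = 0.43), the opposite direction.

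Both arrays of Rrp7a at 24 h lay above both at 0 h in control cells and below both in the other line. The control arrays barely separated (3.67 and 3.77, then 3.95 and 3.78), and that change did not pass the test (adjusted p = 0.25). The difference of -0.43 did not pass either (adjusted p = 0.096).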

How the results depend on the processing

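The counts of members called lower in both inductions stayed within 1.5 times of the reported 27 and 32 in every alternative that gave a test (1 slide alone gives none). The members' medians moved. In control cells the median was -1.14 with median scaling, -1.10 with the 75th percentile over probes above background on all arrays, -0.90 with normexp, -0.96 with normexp and quantile normalization and in the authors' deposited table, -0.94 without the filter, -0.95 with the mean of kept probes and -0.97 with every probe on its own. In the line labelled knockdown it was -1.50 with median scaling, -1.19 with normexp and in the deposited table, -1.18 with normexp and quantile normalization and without the filter, and -1.31 and -1.18 on slides 1 and 2 alone, and the filter on all arrays left 0 called higher. At 0 h, 1 member was lower with quantile normalization, the percentile over all-array probes, the filter on all arrays, the intensity trend or the block, and 0 were higher with median scaling or no filter, 3 with normexp and 8 with the all-array percentile, normexp and quantile normalization or the deposited table; the median was 0.24 with median scaling and 0.22 with the mean of probes. At 24 h, 0 were lower with median scaling or no filter and 10 with the replicate block, and median scaling gave -0.17. No share of all genes under the block is given beside that count. For the difference of inductions, 0 were called with median scaling, normexp, normexp and quantile normalization, the deposited table or no filter; at an adjusted p alone 0 were lower with median scaling or no filter and 7 with normexp, and 1 was higher with quantile normalization, the all-array percentile, the trend or the block; median scaling gave -0.41.

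Leaving out 1 array gave, for members, 25 to 27 called lower, 0 to 1 higher and medians of -1.03 to -0.98 in control cells; 32 to 36, 0 to 1 and -1.32 to -1.19 in the other line; 0 to 1 called lower, 0 to 1 and 0 to 4 lower and higher by adjusted p and 0.14 to 0.21 at 0 h; 0 to 3 and -0.14 to -0.09 at 24 h; and 0 to 2 called lower, 0 to 1 higher, 0 to 7 and 0 to 1 by adjusted p and -0.33 to -0.24 for the difference. For the other biogenesis genes it gave 37 to 43 lower, 2 higher and -0.82 to -0.75; 60 to 65, 2 and -1.10 to -1.05; medians of 0.15 to 0.22 at 0 h; 0 to 1 and -0.11 to -0.04 at 24 h; and 1 to 3, 1 to 2 and -0.27 to -0.19.

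For those other genes the control median was -0.88 with median scaling, -0.84 with the all-array percentile, -0.72 with normexp, -0.73 with normexp and quantile normalization and in the deposited table and -0.81 on slide 2, with 1 called higher under the mean of probes. In the line labelled knockdown it was -1.32, -1.13 with quantile normalization, -1.11 with the all-array percentile and with every probe, and -1.01 with normexp, with 0 called higher after median scaling, quantile normalization, normexp and quantile normalization or in the table and 1 with the mean of probes. Median scaling and the all-array percentile gave 0.26 and 0.15 at 0 h, and median scaling -0.13 at 24 h, where 0 were called with normexp, normexp and quantile normalization, the table, no filter or the filter on all arrays. The difference was -0.37, -0.19, -0.25 with normexp, with every probe and on slide 1, -0.26 in the table and -0.20 on slide 2, with 1 called lower under median scaling and the filter on all arrays, 0 under normexp, normexp and quantile normalization, the table or no filter, and 0 higher with median scaling or no filter.

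Scalings of the neighbouring lists were chosen after seeing the data. The cytosolic median in the line labelled knockdown was 0.20 with median scaling, 0.06 with quantile normalization, 0.03 with normexp and quantile normalization and 0.02 in the table. The mitochondrial median was -0.52 with median scaling and -0.48 with quantile normalization and the all-array percentile in control cells, and -0.77 with median scaling in the other line. Polr1d in the line labelled knockdown reversed to -0.21 with the mean of its probes. The replicate block brought the induction change of Rrp1 in the line labelled knockdown, -0.28, past the test (adjusted p = 0.011) and changed no other call of a member beside those given with the results, and the cause of these shifts was not tested.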
